A study of Homo sapiens with 6 samples.

Results

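The SOX genes encode transcription factors that share a DNA-binding domain first recognized in SRY, the testis-determining factor. Expression of 10 of them, SOX2, SOX4, SOX7, SOX9, SOX11, SOX12, SOX13, SOX15, SOX17 and SOX18, was examined in the IKPRAB-36 cell line with and without a progestin. The members were all probe sets annotated to 1 of these genes alone, which gave 27 of the 54613 probe sets tested. These genes were chosen with knowledge of their signal relative to the array median and of their change on these same arrays, so that their values, and the counts of those past a threshold, are given as a description and support nothing.

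IKPRAB-36 is an Ishikawa endometrial cancer cell line stably transfected with progesterone receptors A and B, and every sample came from this line. The MPA group (3 arrays) had been cultured for 48 h with 1 nM medroxyprogesterone acetate, a synthetic progestin, and the control group (3 arrays) for the same time without it. All cells grew in charcoal-stripped serum with neomycin and hygromycin, which maintain selection for the transfected receptors. The receptors are carried as transgenes in a single selected line, which limits it as a model of endometrium.

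SOX proteins bind short AT-rich sites in the minor groove, bend the DNA and act mostly together with partner factors such as POU, PAX or TCF/LEF proteins. They are grouped by sequence: SOX2 belongs to group B1, SOX4, SOX11 and SOX12 to group C, SOX13 to group D, SOX9 to group E, SOX7, SOX17 and SOX18 to group F, and SOX15 to group G. In the uterus, SOX17 is known from mouse for its role in glands and implantation, and SOX9 marks the base of endometrial glands and is a known target of Wnt/β-catenin signaling.

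The promoter set held no entry that was used for SOX9, SOX11, SOX15 or SOX18, and members on the chromosome that carries SOX7 and SOX17 were left out. Promoter sequence was thus used for SOX2, SOX4, SOX12 and SOX13. The 250 bases before the start site are shown for SOX4 and SOX13, as these genes had the lower and the higher signal with MPA among the 4. They are RefSeq sequences of GRCh38.p14, both from the plus strand, at chr6:21593501-21593750 for SOX4 and chr1:204072865-204073114 for SOX13. Capitals mark matches to any of 6 motifs searched on both strands: the CCAAT box, the TATA box with the letters TATAAA, the GC box with GGGCGG, a short SOX site with AACAAT, a longer one with AACAAAG, and a hormone receptor core motif with AGAACA, which is a part of the full element.
SOX4: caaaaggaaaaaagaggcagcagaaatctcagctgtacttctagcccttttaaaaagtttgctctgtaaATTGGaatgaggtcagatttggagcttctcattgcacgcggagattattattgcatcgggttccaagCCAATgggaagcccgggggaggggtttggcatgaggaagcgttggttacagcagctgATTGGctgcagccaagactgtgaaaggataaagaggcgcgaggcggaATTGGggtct
SOX13: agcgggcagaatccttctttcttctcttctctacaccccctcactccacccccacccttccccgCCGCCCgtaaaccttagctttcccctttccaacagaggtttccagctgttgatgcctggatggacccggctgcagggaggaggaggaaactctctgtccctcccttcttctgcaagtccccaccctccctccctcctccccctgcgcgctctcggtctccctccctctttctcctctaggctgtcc
The SOX4 window held 4 CCAAT matches, 1 on the plus strand and 3 read as ATTGG, which begin 181, 114, 57 and 10 bases before the start site. A match to CCAAT was found in 32% of the 35116 RefSeq promoter windows of this length, and 4 or more matches in 0.874%. The SOX13 window held 1 match, a GC box 186 bases before the start site, a motif found in 42.6% of the windows. The GC content was 48.8% for SOX4 and 60.8% for SOX13, against a median of 58% over all windows. The short SOX site, the longer SOX site, the hormone receptor core motif and the TATA box had no match in the SOX4 or SOX13 window, and they were found in 8.98%, 4.5%, 12.4% and 10.7% of all windows. A match is a description of the letters only.

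The values are RMA signals on the log2 scale, a measure that already includes correction for background, scaling of the arrays to a common distribution and merging of several probes into 1 value for a probe set. The array medians lay between 5.16 and 5.28, the highest being that of MPA 3. This array also had the lowest mean signal of the poly-A control probe sets, 5.83, against 6.91 to 7.58 on the other arrays. The progestin-induced genes FKBP5 and PDK4 were higher with MPA on every array, and all 6 epithelial markers lay above every array median, with means over the 6 arrays of 7.92 to 14.04. None of them was called. EPCAM and CDH1 differed by -0.54 and -0.76 and KRT8 by 0.22 without overlap between the groups (lowest adjusted p = 0.0586 from limma), KRT7, KRT19 and KRT18 by 0.33, 0.27 and 0.02 with overlap, and their part in the SOX values was not tested. The progesterone receptor gene PGR had mean signals of 10.70 in MPA cells and 10.22 in control cells. Of the 2 immune markers with a probe set of their own, PTPRC lay under every array median and CD3E above every one, with means of 5.45 in MPA cells and 5.49 in control cells. It is not stated that the 3 arrays of a group came from separate cultures, so the spread between them may be technical, and the number of arrays limits the precision.

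Of the 10 SOX genes, 6 had a brightest probe set above the median of all 6 arrays and 4 had one below the median of every array. The first were SOX4, SOX7, SOX9, SOX12, SOX13 and SOX15, and the second SOX2, SOX11, SOX17 and SOX18. Over all probe sets, 12 of 27 lay above every array median and 14 below every one. The remaining probe set, 206122_at of SOX15, lay above the median of 1 array, MPA 3. Probe sets differ in how well they bind, so that signals of different genes are not ranked here. Detection calls were not used, so a signal below the array median was not told apart here from that of a gene not expressed.

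**Figure D1:**
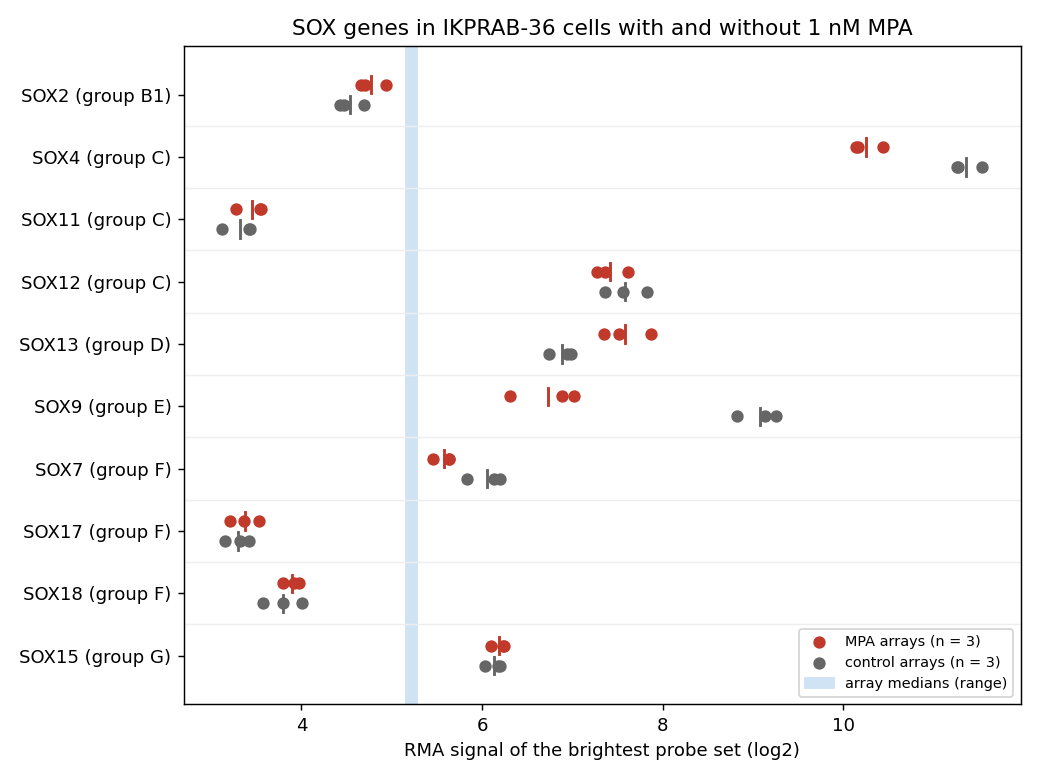
RMA signal (log2) of the brightest probe set of each of the 10 SOX genes on the 3 MPA arrays (red) and the 3 control arrays (grey), with vertical marks at the group means and a blue band over the range of the array medians (5.16 to 5.28). SOX9 and SOX4 lie lower on every MPA array, SOX13 lies higher, and SOX2, SOX11, SOX17 and SOX18 stay left of the band in both groups.

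SOX9 showed the largest decrease of the 10 genes, SOX4 followed, and SOX13 was higher with MPA. A probe set was counted as passing the threshold at an adjusted p under 0.05 in a limma fit over all 54613 probe sets together with the minimum fold change stated in the methods of the study. By this rule 7 of the 27 probe sets were lower with MPA, 5 of SOX4 (1 of them, 213665_at, under every array median, and 4 with dim probe sets left out) and 2 of SOX9, where the share over all probe sets was 0.813%. A single one was higher, of SOX13, where the share over all probe sets was 1.21%. Since the genes were chosen with this contrast known, nothing is read from these counts. The 3 MPA arrays lay entirely below the 3 control arrays in 8 member probe sets and entirely above them in 4, which held for 7.43% and 7.94% of all probe sets. By brightest probe set, SOX4, SOX7 and SOX9 were lower without overlap and SOX13 was higher, where the shares over all genes were 7.98% and 8.96%. The median log2 fold change was 0.06 over the 27 probe sets and 0.01 over all probe sets.

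**Figure D2:**
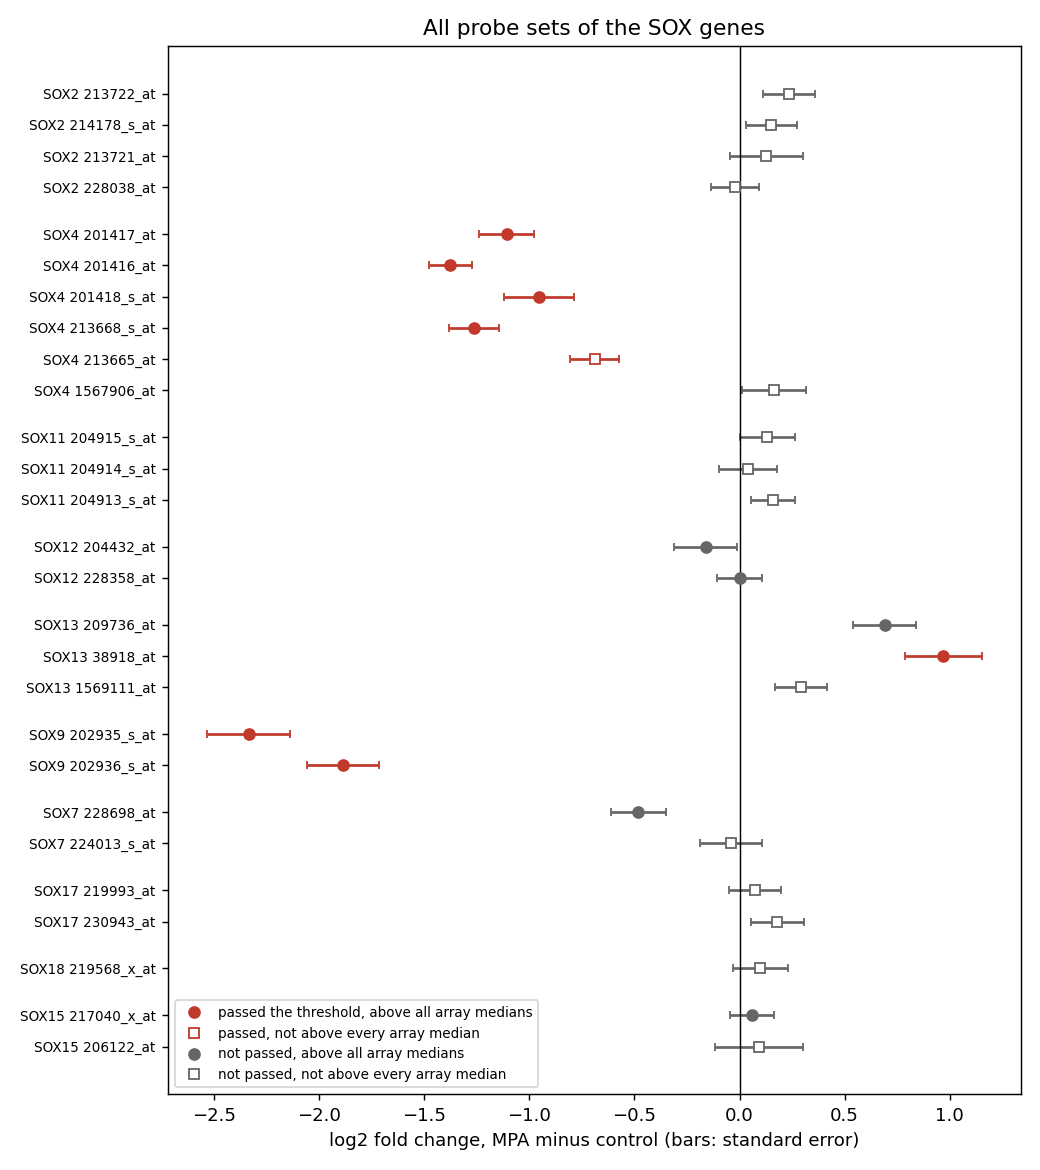
log2 fold change (MPA minus control, 3 arrays each) with its standard error for all 27 SOX probe sets, in the order of the SOX groups. Red marks those that passed the threshold over all probe sets, and open squares those not above every array median. The SOX9 probe sets and 5 of 6 for SOX4 lie left of 0, and all 3 for SOX13 lie right of it.

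SOX9, the group E factor that drives cartilage formation and maintains progenitor cells in several epithelia, was measured by 2 probe sets, both above every array median. The brighter one, 202935_s_at, had log2 signals of 7.02, 6.88 and 6.31 on MPA arrays 1 to 3, against 9.26, 8.82 and 9.14 on control arrays 1 to 3. The other, 202936_s_at, had 6.68, 6.91 and 7.02 on the MPA arrays, against 8.85, 8.40 and 9.02 on the control arrays. In both, every MPA array lay far below every control array, and the probe sets disagreed most on MPA 3, which was the lowest MPA array for the first and the highest for the second. The brighter probe set averaged 6.74 ± 0.38 in MPA cells and 9.07 ± 0.22 in control cells (SD, n = 3 each), a difference of -2.34 on the log2 scale (standard error 0.20) or 5.05-fold lower. The second probe set differed by -1.89 (standard error 0.17), or 3.70-fold lower. On the 6 arrays the brighter probe set stood between the percentiles 64.8 and 92.0 of all probe sets. Without MPA 3 the difference of the brighter probe set was -2.12, and it ranged from -2.48 to -2.12 over the 6 fits that left out 1 array.

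SOX4, a group C factor widely expressed in progenitor and tumor cells, was measured by 6 probe sets. The brightest, 201417_at, had log2 signals of 10.16, 10.14 and 10.44 on MPA arrays 1 to 3, against 11.26, 11.27 and 11.54 on control arrays 1 to 3. This was a difference of -1.11 (standard error 0.13), or 2.15-fold lower, and the groups did not overlap. Probe set 201416_at had 9.08, 9.11 and 9.26 in MPA cells, against 10.58, 10.47 and 10.53 in control cells, a difference of -1.38 (standard error 0.10). For 201418_s_at the signals were 7.98, 8.08 and 8.56 with MPA, against 9.09, 9.05 and 9.34 without, a difference of -0.95 (standard error 0.17). Thus the 3 probe sets numbered in sequence for SOX4 had differences of like direction, each with MPA 3 as the MPA array nearest to the control arrays. Probe set 213668_s_at averaged 7.18 ± 0.17 in MPA cells and 8.44 ± 0.07 in control cells (SD, n = 3 each), a difference of -1.26. The remaining pair lay under every array median. Of these, 213665_at had 4.15, 4.07 and 3.92 in MPA cells, against 4.89, 4.68 and 4.63 in control cells, a difference of -0.69, while 1567906_at averaged 4.43 ± 0.27 in MPA cells and 4.26 ± 0.13 in control cells, a difference of 0.17 with overlapping groups. Averaged over all 6 probe sets, SOX4 differed by -0.87. Probe sets 201418_s_at and 213665_at no longer passed the threshold when control 1, control 3, MPA 1 or MPA 2 was left out.

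The other group C genes are SOX12 and SOX11. SOX12, whose protein binds the same sites as SOX4 and SOX11 but in the mouse is the weakest activator of the group, had 2 probe sets above every array median. Its brightest, 204432_at, had log2 signals of 7.37, 7.28 and 7.62 with MPA, against 7.82, 7.36 and 7.56 without, and the groups overlapped with a difference of -0.16 (standard error 0.15). The second, 228358_at, averaged 6.18 ± 0.03 in MPA cells and 6.18 ± 0.13 in control cells. SOX11, which acts in neuronal development, lay between 2.52 and 3.56 in all 3 probe sets on all arrays, with differences of 0.04 to 0.16. Its dimmest probe set, 204913_s_at, was the only one whose groups did not overlap among the 14 probe sets of SOX2, SOX11, SOX12, SOX15, SOX17 and SOX18.

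**Figure D3:**
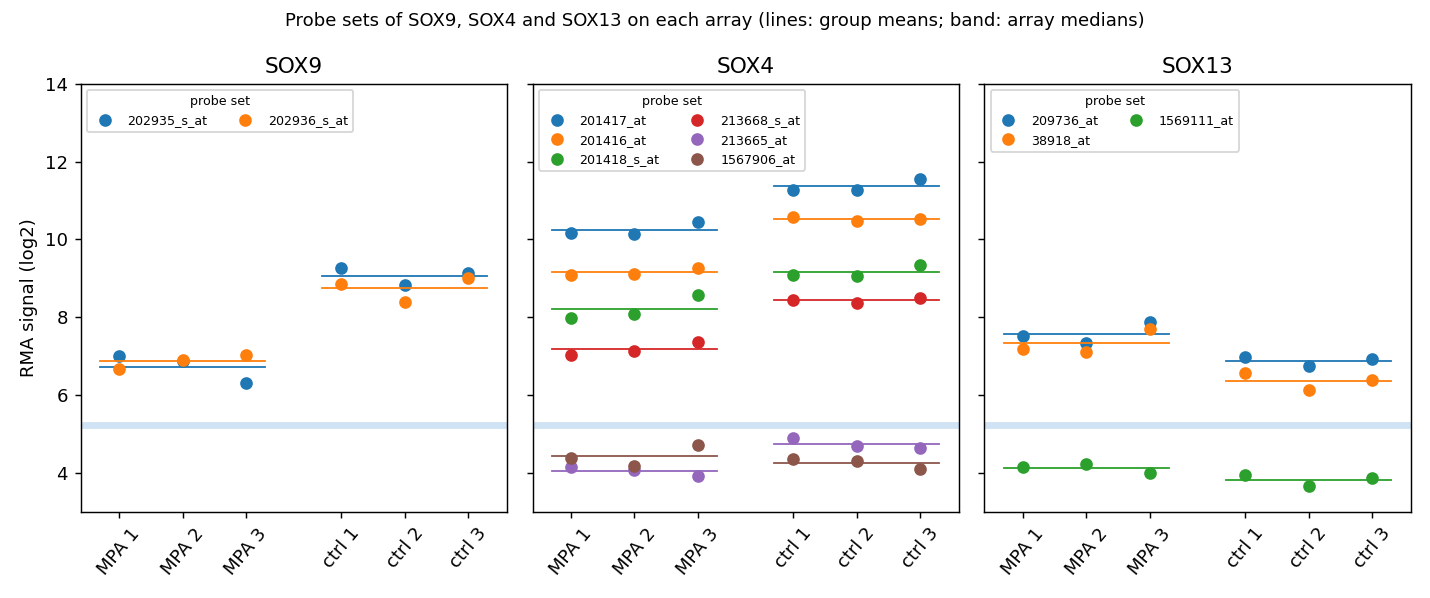
RMA signal (log2) of every probe set of SOX9 (2), SOX4 (6) and SOX13 (3) on MPA arrays 1 to 3 and control arrays 1 to 3 (ctrl), with lines at the group means and a band over the array medians. Both SOX9 probe sets lie near 7 on the MPA arrays and near 9 on the control arrays, the 4 bright SOX4 probe sets step up in parallel on the control arrays, and the 2 bright SOX13 probe sets step down.

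SOX13, the group D factor known to restrain TCF1 activity in T cells of the mouse, was higher with MPA. Probe set 209736_at, the brightest, had log2 signals of 7.52, 7.35 and 7.87 on MPA arrays 1 to 3, against 6.98, 6.74 and 6.94 on control arrays 1 to 3, a difference of 0.69 (standard error 0.15) or 1.61-fold. Probe set 38918_at had 7.18, 7.10 and 7.71 with MPA, against 6.56, 6.13 and 6.39 without, a difference of 0.97 (standard error 0.18) or 1.96-fold. In both the groups did not overlap and MPA 3 was the highest array. Without MPA 3 the difference of the brightest probe set was 0.55. The third, 1569111_at, lay under every array median and had 4.16, 4.23 and 3.99 in MPA cells, against 3.96, 3.65 and 3.88 in control cells, also without overlap. Only 38918_at passed the threshold over all probe sets, and it did not when control 1, control 2, control 3 or MPA 1 was left out.

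Of the group F genes, which act in endothelium, endoderm and, for SOX17, Müllerian epithelium, only SOX7 had a probe set above the array medians. Its probe set 228698_at had log2 signals of 5.64, 5.64 and 5.45 with MPA, against 6.14, 5.83 and 6.20 without, a difference of -0.48 (standard error 0.13) with no overlap. It did not pass the threshold over all probe sets, and the second SOX7 probe set, 224013_s_at, was dim and differed by -0.04. SOX17 lay between 2.59 and 3.54 in both of its probe sets on all arrays, with differences of 0.07 and 0.18. SOX18, a regulator of lymphatic vessels, had signals of 3.80, 3.91 and 3.97 in its single probe set with MPA, against 4.01, 3.58 and 3.80 without.

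SOX2, the pluripotency factor of group B1, lay between 2.50 and 4.94 in 4 probe sets and below every array median. Its brightest, 213722_at, had signals of 4.71, 4.66 and 4.94 with MPA, against 4.48, 4.70 and 4.43 without, and the groups overlapped. SOX15, the only group G gene, had 6.10, 6.23 and 6.24 in 217040_x_at with MPA, against 6.03, 6.19 and 6.17 without, a difference of 0.06 (standard error 0.10). Its other probe set, 206122_at, had 4.85, 4.67 and 5.55 with MPA, against 4.88, 4.92 and 5.00 without, with overlapping groups. The suffix of the brightest SOX15 and SOX18 probe sets marks probes that may bind other transcripts as well.

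The 9 other SOX genes with a probe set of their own (SOX1, SOX3, SOX5, SOX6, SOX8, SOX10, SOX14, SOX21 and SOX30) were not used to choose the members and were tested in the same fit. None of their 24 probe sets was called by limma. The share of all genes with an unadjusted p under 0.05 was not counted, so nothing is read from the 1 of these 9 genes under it in its brightest probe set. That gene was SOX8, a group E factor like SOX9. It had log2 signals of 5.36, 5.36 and 5.95 on MPA arrays 1 to 3, against 6.21, 6.14 and 6.22 on control arrays 1 to 3, a difference of -0.63 (adjusted p = 0.144 from limma). The MPA arrays lay below the control arrays, MPA 3 closest to them, and without MPA 3 SOX8 was called lower (-0.83, adjusted p = 0.0072 from limma). In the other fits that left out 1 array SOX8 was not called (adjusted p of 0.175 to 0.463 from limma). SOX10, the remaining group E gene, differed by -0.12 (adjusted p = 0.858 from limma). By brightest probe set, 1.74% of all 19775 genes were called higher and 1.16% lower, with a median log2 fold change of 0.02.

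**Figure D4:**
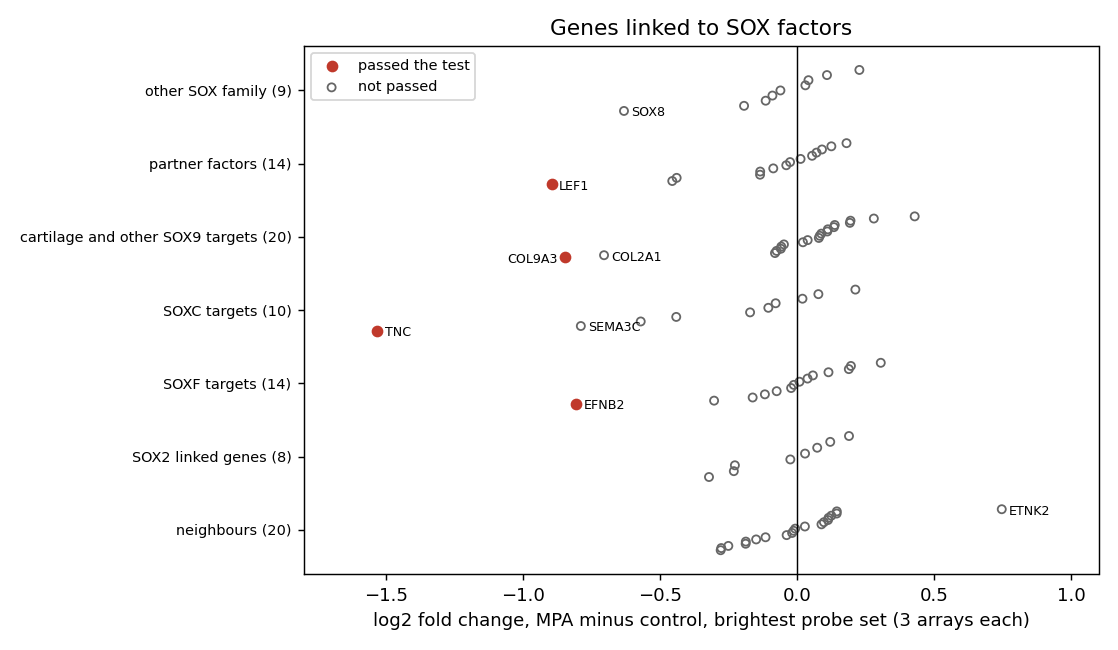
log2 fold change (MPA minus control, 3 arrays each) of the brightest probe set of genes linked to SOX factors, by list, with the number of measured genes in parentheses. Red points passed the test over all probe sets: LEF1, COL9A3, TNC and EFNB2, all lower. Earlier results of LEF1 and TNC on these arrays were known when the lists were chosen. Open points did not pass.

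Partner factors of SOX proteins were measured for 14 genes, of which 1 fell, none rose and 13 did not pass the test (median log2 fold change -0.03). LEF1, a TCF/LEF factor through which β-catenin acts and whose DNA-binding domain resembles that of SOX proteins, had signals of 5.84, 5.85 and 5.37 with MPA, against 6.49, 6.46 and 6.80 without, a difference of -0.90 (adjusted p = 0.029 from limma). It was not called without control 1, control 3, MPA 1 or MPA 2 (adjusted p of 0.052 to 0.151), nor as the mean of its 3 probe sets (-0.28, adjusted p = 0.199). An earlier result of LEF1 on these arrays was known when the list was chosen, so its call is given as a description only. CTNNB1, which encodes β-catenin, had mean signals of 12.20 in MPA cells and 12.13 in control cells, and TCF7L2 had 8.69 in MPA cells and 8.56 in control cells. PAX8, a Müllerian lineage factor, differed by -0.44 without overlap between the groups (adjusted p = 0.0762 from limma). It was called lower with an intensity trend in the variance (adjusted p = 0.0335 from limma) and by SAM, the study's test. In the other settings that were run PAX8 was not called.

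Of 20 measured SOX9 target genes, mostly of cartilage, COL9A3 fell, none rose and 19 did not pass the test (median log2 fold change 0.08). COL9A3, a chain of type IX collagen, had signals of 5.46, 5.40 and 5.34 in MPA cells, against 6.51, 5.87 and 6.37 in control cells, a difference of -0.85 (adjusted p = 0.04 from limma). Leaving out any array but control 2 ended this call (adjusted p of 0.104 to 0.205). COL2A1, the type II collagen gene that SOX9 activates in cartilage, was bright, with 10.56, 10.26 and 10.98 in MPA cells, against 11.41, 11.07 and 11.43 in control cells. Its difference of -0.71 did not pass the test (adjusted p = 0.15), although the groups did not overlap in this probe set. The other COL2A1 probe set differed by -0.66 with overlapping groups (adjusted p = 0.282 from limma). Without MPA 3 the brightest probe set was called lower (-0.89, adjusted p = 0.0336). In the other fits that left out 1 array it was not called (adjusted p of 0.0991 to 0.516 from limma). ACAN, which encodes aggrecan, and MATN1, a cartilage matrix protein, differed by -0.06 and 0.11. By brightest probe set, 3 of the 20 genes were higher without overlap: PTGDS by 0.43, COMP by 0.28 and S100A1 by 0.19. COL9A3 and COL2A1 were the 2 that were lower without overlap. The shares over all genes were 8.96% higher and 7.98% lower.

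Among 10 target genes of SOX4 and the other group C factors, TNC fell, none rose and 9 did not pass the test (median log2 fold change -0.14). TNC, the gene of the matrix glycoprotein tenascin-C, had signals of 5.82, 5.93 and 6.20 in MPA cells, against 7.58, 7.37 and 7.61 in control cells, a difference of -1.53 (adjusted p = 0.000663 from limma), and was called in all 6 fits that left out 1 array. As the mean of its 3 probe sets TNC differed by -0.72 (adjusted p = 0.0027), and its dimmest probe set differed by -0.12 and was not called. The list was chosen with an earlier result of TNC on these arrays known, so its call is given as a description only. TUBB3, a neuronal tubulin activated by group C factors, had mean signals of 12.25 in MPA cells and 12.18 in control cells, in a probe set whose suffix marks probes that may bind other transcripts. TEAD2, another such target, differed by -0.44 (adjusted p = 0.275), and EZH2 by -0.08. Of 14 target genes of group F factors, EFNB2, the arterial ligand ephrin-B2, fell by 0.81 (adjusted p = 0.0185), none rose and 13 did not pass the test (median log2 fold change -0.0021). EFNB2 had signals of 8.93, 8.61 and 8.65 in MPA cells, against 9.59, 9.36 and 9.66 in control cells. It was not called without control 1, control 3 or MPA 2 (adjusted p of 0.0717 to 0.119). None of 8 genes linked to SOX2 was called, and 1, SALL4, had an unadjusted p under 0.05. The share of all genes under this p was not counted, so nothing is read from it. SALL4, like SOX8, ETNK2 and PINX1, is named here after its value was seen.

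The genes nearest to each member on its chromosome in the RefSeq gene table, among those with a probe set of their own, were compared in the same way. None of the 20 was called by limma. The share of all genes with an unadjusted p under 0.05 was not counted, so nothing is read from the 2 neighbours under it. These were ETNK2, an ethanolamine kinase gene beside SOX13, and PINX1, beside SOX7. ETNK2 had signals of 7.18, 7.21 and 7.63 in MPA cells, against 6.60, 6.37 and 6.80 in control cells, a difference of 0.75 (adjusted p = 0.0643). PINX1 differed by -0.28 (adjusted p = 0.311 from limma). SOX9-AS1, the noncoding neighbour of SOX9, lay below every array median, with means of 3.85 in MPA cells and 4.13 in control cells (adjusted p = 0.584), and CASC15 beside SOX4 averaged 4.70 in MPA cells and 4.59 in control cells (adjusted p = 0.902).

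The genes whose pattern was most like that of SOX9 and SOX13 were taken from 12973 genes above the overall median by Pearson's r over the 6 arrays. These values describe arrays that share the same split into groups. For SOX9 they were OSER1 (r = 0.996), MATR3 (0.995) and C1orf116 (0.994), which differed by -0.32, -0.62 and -0.48. For SOX13 they were COL23A1 (r = 0.999), PARP10 (0.997) and ISM2 (0.997), which differed by 1.09, 0.24 and 0.54. Pearson's r takes no account of the size of a change, so nothing is read from the unequal sizes of these differences.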

How the data were processed

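Labeled RNA from 6 samples of IKPRAB-36 cells, 3 with MPA and 3 without, was measured on Affymetrix U133 Plus 2.0 arrays. Signals were summarized by the authors with RMA and deposited as log2 values, which were used without further scaling. Gene names came from the annotation of the platform, updated through gene identifiers (41091 with 1 symbol, 1801 with several and 11721 with none), and 62 Affymetrix control probe sets were left out. For each gene the probe set with the highest mean over all arrays stood for the gene. Groups were compared with limma 3.58.1 in R 4.3.3 (lmFit and eBayes, two-sided, no covariate, Benjamini-Hochberg over 54613 probe sets). The methods' test, SAM, was written from its description and run as an alternative with 20 relabelings and delta 0.6, the smallest with an estimated false discovery rate under 5%, which differs from the delta given in the study's supplement. The steps were tested on simulated data. The members, lists and tests were chosen with earlier results of these arrays known, those of TNC and LEF1 included. Of other genes, those called and those with a role explained were named, and for likeness the top 3 genes. Arrays correlated at 0.988 to 0.997 within groups and at 0.982 to 0.992 between groups, ranges that overlap, and no pair of arrays held identical values throughout. Chromosome order and promoters came from RefSeq (GRCh38.p14). Detection calls were not used here.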

Additional observations from a re-analysis of the deposited data

How the results depend on the processing

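The direction of SOX4, SOX7, SOX9, SOX12, SOX13, SOX2, SOX11 and SOX15 in their brightest probe sets was the same in each normalization, filter, block and fit without 1 array that was run; SOX17 and SOX18, which lay below the array medians, crossed 0, SOX17 without MPA 3 and SOX18 without control 2 (-0.01 each). As the mean of all their probe sets, SOX4 (-0.87) and SOX7 (-0.26) moved by more than the spread between arrays. Arrays with the same number in the labels did not all deviate together (correlations of -0.017, 0.523 and 0.326). Between MPA and control arrays of unlike number the correlations were -0.479 to 0.352. The numbers were not taken to pair arrays, and whether some arrays share a batch was not tested. With the replicate number as a block, 1208 probe sets were called higher and 825 lower, against 663 and 444 without it; 2 SOX member probe sets were higher, and of the partner, target and neighbour genes 1 was higher and 7 were lower, against 0 and 4. SOX8 and COL2A1 were among those called lower with the block (adjusted p = 0.0286 and 0.0086 from limma), and ETNK2 was higher (adjusted p = 0.00404). SAM called 1168 probe sets higher and 752 lower, with 2 SOX member probe sets higher. Of the partner, target and neighbour genes SAM called 1 higher and 5 lower, PAX8 among the latter. With a minimum of 2-fold, 357 probe sets were higher and 153 lower, no SOX member probe set was higher (0), and 1 partner, target or neighbour gene was lower. When the probe sets of each gene were averaged, 1 such gene was higher, ETNK2 (adjusted p = 0.0362 from limma). Its difference was 0.75 there as in the main fit, so averaging left its value unchanged. Leaving out 1 array at a time gave 353 to 725 probe sets higher and 156 to 465 lower, 0 to 1 SOX member probe sets higher and 5 to 7 lower, and 0 partner, target or neighbour genes higher and 1 to 5 lower. The cause of these differences was not tested. Housekeeping scaling used the 8 of 12 listed genes with a probe set of their own. Precision is limited by the 3 arrays of each group, and signals under the array medians were not set apart from background.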

Other observations

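Several genes named for other tissues were bright in these cells in both groups. TUBB3, a neuronal tubulin measured by probes that may bind other transcripts as well, had 12.17, 12.14 and 12.44 on MPA arrays 1 to 3, against 12.18, 12.10 and 12.25 on control arrays 1 to 3. The other neural markers GFAP, S100B and ELAVL4 averaged 5.39, 2.98 and 3.98 in MPA cells, against 5.38, 3.04 and 3.95 in control cells; GFAP lay just above the array medians and the others below them. COL1A1, a fibrillar collagen of stroma, had 8.30, 8.04 and 8.17 in MPA cells, against 9.27, 8.41 and 9.24 in control cells, a difference of -0.81 (adjusted p = 0.168 from limma), while LUM and PDGFRB, other stromal markers, lay under the array medians with means of 2.79 and 4.15 in MPA cells, against 2.69 and 4.09 in control cells. Of the remaining stromal markers, DCN lay above every array median (5.38 in MPA cells and 5.41 in control cells) and COL1A2 below every one (4.90 in MPA cells and 4.91 in control cells). ZBTB16, a known progestin-induced gene of endometrial stroma, lay below every array median in both groups (3.52 in MPA cells and 3.63 in control cells), while 4 of the 5 progestin-induced genes measured were called higher.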
